A study of Strongylocentrotus purpuratus with 4 samples.

Results

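Dividing pigment cells of the purple sea urchin Strongylocentrotus purpuratus were 187 cells, 34 at 72 hours post fertilization (hpf) and 153 at 48 hpf, of 11836 cells that passed the filter in 2 uninjected libraries and of 17911 deposited in 4. The study was made to describe the pigment cells of gastrulae and larvae at the level of single cells. Uninjected embryos were dissociated and enriched for ectoderm, the layer in which pigment cells lie, and gave 1 library per stage. Whole gastrulae of 48 hpf gave a library after injection of a control morpholino (MO) and another after injection of a MO against gcm. Each library pools the cells of many embryos, and stage, library and sequencing lane cannot be told apart between 72 and 48 hpf. The 2 uninjected libraries shared 14 cell barcodes, none of them a dividing pigment cell.

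Pigment cells derive from the non-skeletogenic mesoderm, move into the ectoderm, make the red naphthoquinone echinochrome and take part in the immune defence of the larva. The transcription factor gcm specifies them, and the polyketide synthase pks1, the sulfotransferase sult1c2 and the flavin-dependent monooxygenase fmo5-1 are needed for or expressed with the pigment. A dividing cell copies its DNA with polymerases, ligases and chromatin assembly factors around the sliding clamp PCNA, then condenses its chromosomes, builds a spindle and divides under the control of cyclin B and its kinase cdk1.

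A cell was called a pigment cell when pks1, sult1c2, fmo5-1 and gcm together had at least 3 UMIs (unique molecular identifiers, 1 per captured transcript) and at least 0.3% of its UMIs, and when ARS, the aryl sulfatase of the aboral ectoderm, had under 1%. It was called dividing when 8 cell cycle genes, among them centromere protein C (LOC589199), had at least 4 UMIs together. Those 8 genes were left out of the results, and the pigment genes and ARS are described only. At 72 hpf 34 of 670 pigment cells were dividing, 5.07% with an exact (Clopper-Pearson) 95% interval of 3.54 to 7.02%. At 48 hpf they were 153 of 451, or 33.9% (29.6 to 38.5%). Among all other kept cells the same 4 UMIs were reached by 16.3% (15.4 to 17.3%) at 72 hpf and by 28.7% (27.4 to 30.01%) at 48 hpf.

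A threshold in UMIs favours cells with more RNA. Dividing pigment cells at 72 hpf had a median of 1835 UMIs (715 to 6424), against 1017 in the other pigment cells of that stage. At 48 hpf they had a median of 2568 (932 to 7086), against 1329. When each cell was thinned to 1000 UMIs and 2 of them had to fall on the 8 genes, the dividing share became 15.6% (12.01 to 19.7%, 57 of 366) at 72 hpf and 38.5% (33.4 to 43.7%, 140 of 364) at 48 hpf, with 304 and 87 shallower cells left out. The dividing share was thus lower at 72 than at 48 hpf under both rules, but its value at 72 hpf depended on the depth. In the thinned cells 19.8% (18.5 to 21.0%) of non-pigment cells were dividing at 72 hpf and 26.1% (24.8 to 27.6%) at 48 hpf. All intervals here and below cover counting error only, since there was 1 library per condition and cells are not replicates. Differences between conditions therefore carry no test.

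The step at 4 UMIs was followed in 16 further cell cycle genes, listed by the study in these same libraries and so not independent of them. Levels are given as CPM, which are UMIs per 1000000 UMIs after adding up the cells named. At 72 hpf the 10 cells with exactly 4 UMIs had 12336 CPM of the 16 genes (95% Poisson interval 10622 to 14247), and the 25 cells with 3 UMIs, just outside, had 7431 CPM (6665 to 8260). At 48 hpf the 25 cells with 4 UMIs had 2577 CPM (2182 to 3022), and the 37 cells with 3 UMIs had 1917 CPM (1624 to 2249). At 48 hpf the threshold therefore fell within a graded series. At 72 hpf the level climbed up to 4 UMIs and no further. At 72 hpf cells with 3 UMIs were already well above those with 0 (1199 CPM), while at 48 hpf cells with 4 UMIs lay far below those with 12 or more (9382 CPM). The 2 cells with 12 or more UMIs at 72 hpf held only 3903 CPM of the 16 genes, and both were deep, with a median of 6406 UMIs.

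**Figure D1:**
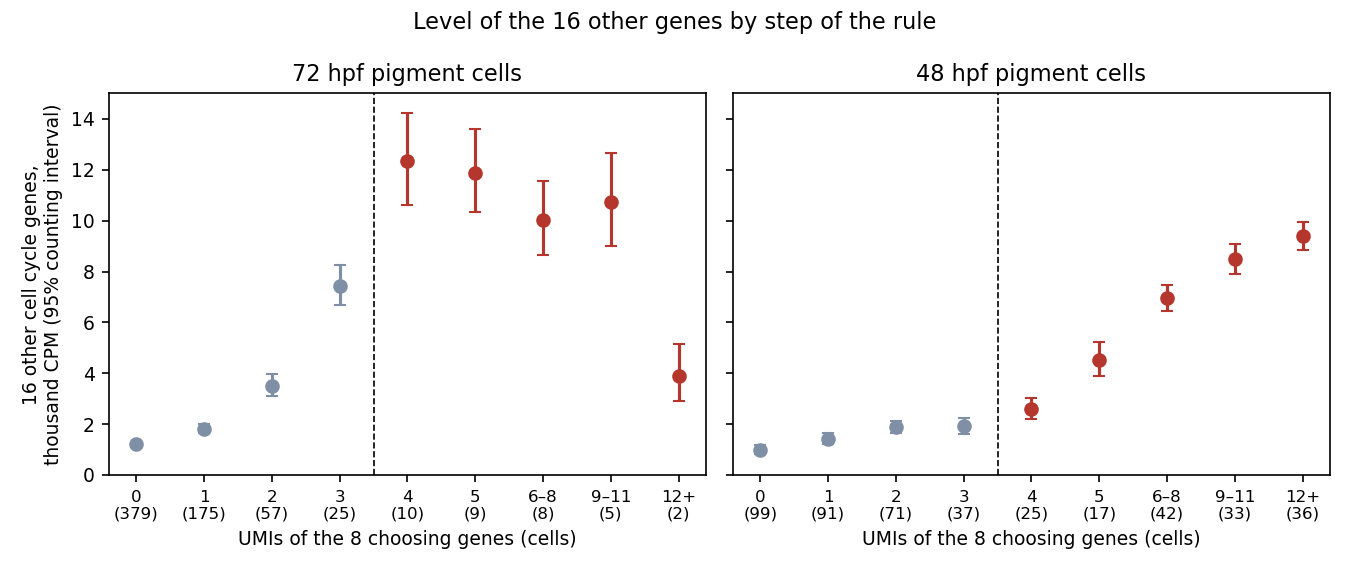
Summed level of the 16 other cell cycle genes (CPM divided by 1000, 95% Poisson intervals) in pigment cells grouped by their UMIs of the 8 choosing genes, 72 hpf left and 48 hpf right, with the number of cells in parentheses and the 4-UMI threshold as a dashed line. At 48 hpf the level climbs by steps to 9382 CPM, while at 72 hpf it is already 7431 CPM in the cells with 3 UMIs.

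The pigment label was weaker for the 72 hpf cells than for the 48 hpf cells. At 48 hpf the 4 pigment genes took a median of 2.80% of the UMIs of a dividing pigment cell (0.533 to 8.56%), and 6 of 153 cells were below 1%. At 72 hpf the median was 0.560% (0.301 to 2.94%), and 24 of 34 cells were below 1%. The other pigment cells had medians of 0.730% at 72 hpf and 2.58% at 48 hpf, so that the low share at 72 hpf was not particular to the dividing cells.

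Of the pigment genes, which the rule used, pks1 and sult1c2 were nearly level between both kinds of pigment cell. pks1 (LOC588806) had 4115 CPM in dividing and 4497 CPM in other pigment cells at 72 hpf, and 15039 and 15854 CPM at 48 hpf. sult1c2 (LOC592500) had 3420 and 3646 CPM at 72 hpf and 11150 and 11418 CPM at 48 hpf. gcm had 373 and 470 CPM at 72 hpf and 430 and 545 CPM at 48 hpf. fmo5-1 (LOC588371) was at 206 CPM in dividing and 430 CPM in other pigment cells at 72 hpf, and at 541 and 582 CPM at 48 hpf. The level of pks1 in dividing non-pigment cells was 92.6 CPM in the 72 hpf library and 152 CPM in the 48 hpf library.

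The 34 cells at 72 hpf were uneven. The 10 cells with a pigment share of at least 1% had 853 CPM of gcm (15 UMIs), and the 24 below 1% had 233 CPM (14 UMIs). The 24 cells held all 22 UMIs of hnf6, a regulator of the ciliary band, in 7 of them, and all 20 of dri, a factor of oral ectoderm and skeletogenic cells, in 5. Their levels of 366 CPM of hnf6 and 332 CPM of dri lay beside 313 and 274 CPM in dividing non-pigment cells of that library. The 450 other pigment cells below 1% had 84.2 CPM of hnf6 and 107 CPM of dri. The metallothionein gene MTa, which met none of the rules for naming genes, had 13658 CPM in the 24 cells and 19164 CPM in the 10. It had 32040 CPM in the 450 other pigment cells below 1% and 37316 CPM in dividing non-pigment cells. SPEC1, a calcium-binding protein of aboral ectoderm, had 582 CPM in the 24 cells and 455 CPM in the 10. It had 970 CPM in the 450 cells and 1193 CPM in dividing non-pigment cells. Whether the 24 cells include cells of other types or droplets with more than 1 cell was not tested. The ratios of the 16 genes, the ratio of replication to mitosis genes and the counts of genes past 2-fold are given with and without them, and the other values of 72 hpf include them. The 16 cell cycle genes described next were at 14274 CPM in the 10 cells and at 8756 CPM in the 24.

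**Figure D2:**
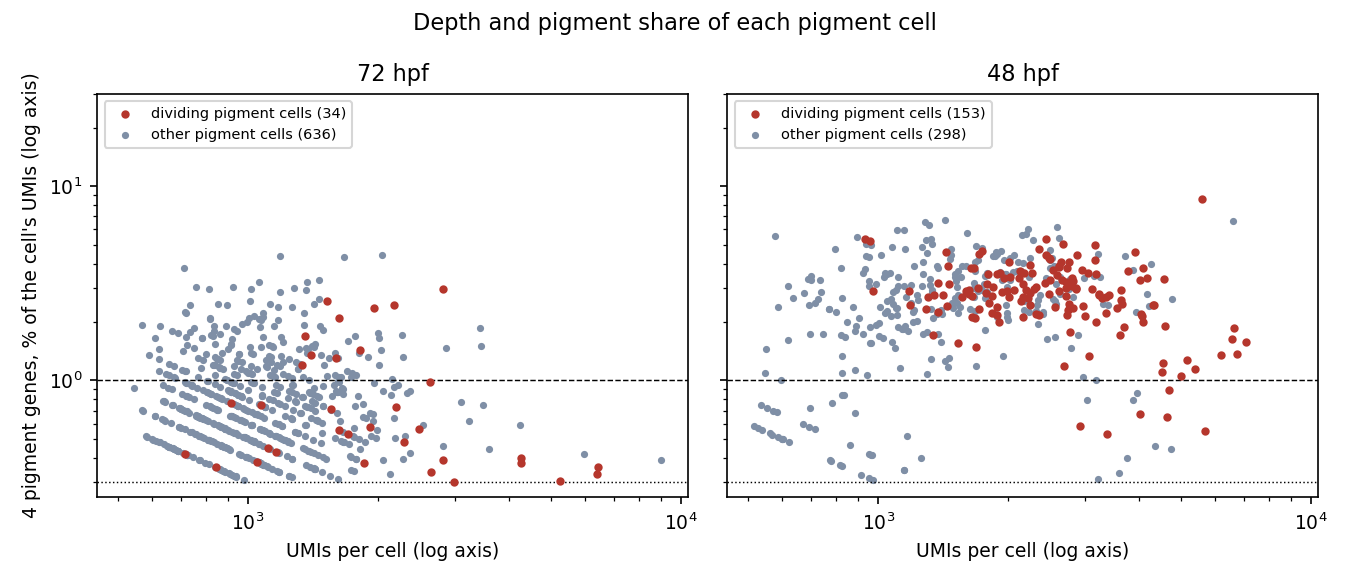
Share of the 4 pigment genes in the UMIs of each pigment cell (log axis) against its total UMIs (log axis), 72 hpf left and 48 hpf right, dividing cells in red and other pigment cells in grey, with lines at 0.3% (the rule) and 1%. At 48 hpf 147 of 153 dividing cells lie above 1%, and at 72 hpf 10 of 34 do.

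At 48 hpf 2 of the 153 cells were rich in skeletogenic or gut markers. One cell of 4560 UMIs, with 4 UMIs of the 8 genes and a pigment share of 1.23%, held 295 of the 329 UMIs of 8 skeletogenic marker genes in the dividing pigment cells, and the next highest cell held 6. The spicule matrix genes PM27 (99 UMIs in dividing and 1 in other pigment cells), SM50 (93 and 4) and SM37 (79 and 4) came almost wholly from it, with 97, 90 and 75 UMIs. Without it the skeletogenic markers were at 81.2 CPM, against 63.1 CPM in other pigment cells. A second cell, of 5180 UMIs, held 65 of the 93 UMIs of the 4 gut markers, 63 of them of Endo16. At 72 hpf the dividing pigment cells had 2 UMIs of the skeletogenic markers and 0 of the gut markers, which allows up to 38.6 CPM. Leaving out both cells at 48 hpf changed the ratio of the 16 genes to 4.82, as against 4.81 with them. The number of genes at least 2-fold higher became 109, as against 118. No cell was left out for other markers. At 48 hpf 1 cell held 97 of the 384 UMIs of the aboral ectoderm markers in dividing pigment cells. The 6 cells below 1% pigment share had 671 CPM of hnf6 and 474 CPM of dri, against 62.8 and 151 CPM in the other 147.

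All 16 genes were higher in dividing than in other pigment cells at 72 hpf and 15 of the 16 at 48 hpf. Summed, they had 10004 CPM in dividing and 2006 CPM in other pigment cells at 72 hpf, a ratio of 4.99 (exact conditional 95% interval 4.57 to 5.44), and 7176 and 1493 CPM at 48 hpf, a ratio of 4.81 (4.43 to 5.22). This direction follows in part from the rule and is a description. The dividing cells of 72 hpf with at least 1% pigment genes gave 6.57 against other pigment cells of that kind. In cells of at least 1500 UMIs the ratio was 3.30 at 72 hpf and 7.63 at 48 hpf.

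The genes of DNA replication were high in dividing pigment cells of both stages. DNA ligase 1 (LOC752989), which joins the fragments of the lagging strand, had 579 CPM in dividing and 84.5 CPM in other pigment cells at 72 hpf, and 916 and 172 CPM at 48 hpf, ratios of 6.85 (4.56 to 10.2) and 5.31. Subunit A of chromatin assembly factor 1 (LOC584359), which places histones behind the fork, had 592 and 91.3 CPM at 72 hpf and 1065 and 210 CPM at 48 hpf. The PCNA-associated factor (LOC100890576) had 373 and 91.3 CPM at 72 hpf and 463 and 105 CPM at 48 hpf. Transcription factor E2F8 (LOC100891325), a repressor of the E2F targets of S phase, had 296 and 45.0 CPM at 72 hpf and 446 and 61.0 CPM at 48 hpf. At 48 hpf these were seen in 89 to 112 of the 153 cells, so that no single cell made the difference.

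SLBP, the protein that binds the stem-loop of histone messenger RNA, had at both stages the highest ratio among the cell cycle genes with a symbol in the files. It had 7 UMIs in dividing and 5 UMIs in other pigment cells at 72 hpf (90.0 and 6.81 CPM), and 88 and 12 UMIs at 48 hpf (208 and 25.2 CPM). Its ratio at 48 hpf was 8.23 (4.49 to 16.5), and at 72 hpf the few UMIs left an interval of 3.61 to 52.8.

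The genes of mitosis were likewise high. Centromere protein F (LOC592172), a kinetochore protein, had 1582 CPM in dividing and 278 CPM in other pigment cells at 72 hpf, and 782 and 219 CPM at 48 hpf. Cyclin B (LOC576779) had 360 and 62.7 CPM at 72 hpf and 194 and 61.0 CPM at 48 hpf. Its kinase cdk1 (LOC575965) had 849 and 202 CPM at 72 hpf and 1006 and 170 CPM at 48 hpf. Thus centromere protein F and cyclin B were at higher levels in the dividing cells of 72 hpf than in those of 48 hpf, while cdk1 was not. DNA topoisomerase 2-alpha (LOC582001), which untangles sister chromosomes, had 656 and 99.4 CPM at 72 hpf and 345 and 73.6 CPM at 48 hpf. The homolog of the targeting protein for Xklp2 (LOC593807), a spindle assembly factor, had 553 and 120 CPM at 72 hpf and 350 and 69.4 CPM at 48 hpf.

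The remaining genes of chromosomes, spindle and cytokinesis had ratios between 2.94 and 6.66. Subunit H2 of condensin-2 (LOC584403) had 309 CPM in dividing and 46.3 CPM in other pigment cells at 72 hpf, and 323 and 54.7 CPM at 48 hpf. SMC4 (LOC592992), the core of condensin, had 463 CPM in dividing and 98.1 CPM in other pigment cells at 72 hpf, and 399 and 79.9 CPM at 48 hpf. The kinesin KRP170 (LOC373241) had 373 and 62.7 CPM at 72 hpf and 106 and 29.4 CPM at 48 hpf. Anillin (LOC590990), which organises the contractile ring, had 193 and 34.1 CPM at 72 hpf, from 15 and 25 UMIs, and 102 and 21.0 CPM at 48 hpf. CDK inhibitor 3 (LOC580574) had the lowest ratios that rested on over 20 UMIs, 3.24 (2.13 to 4.83) at 72 hpf and 2.94 (1.51 to 6.06) at 48 hpf. The PCNA-interacting partner (LOC752321) was the exception, with 5 UMIs in dividing and 11 in other pigment cells at 48 hpf, a ratio of 0.511 (0.139 to 1.59), and 10 and 20 UMIs at 72 hpf, a ratio of 4.72 (1.97 to 10.6).

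**Figure D3:**
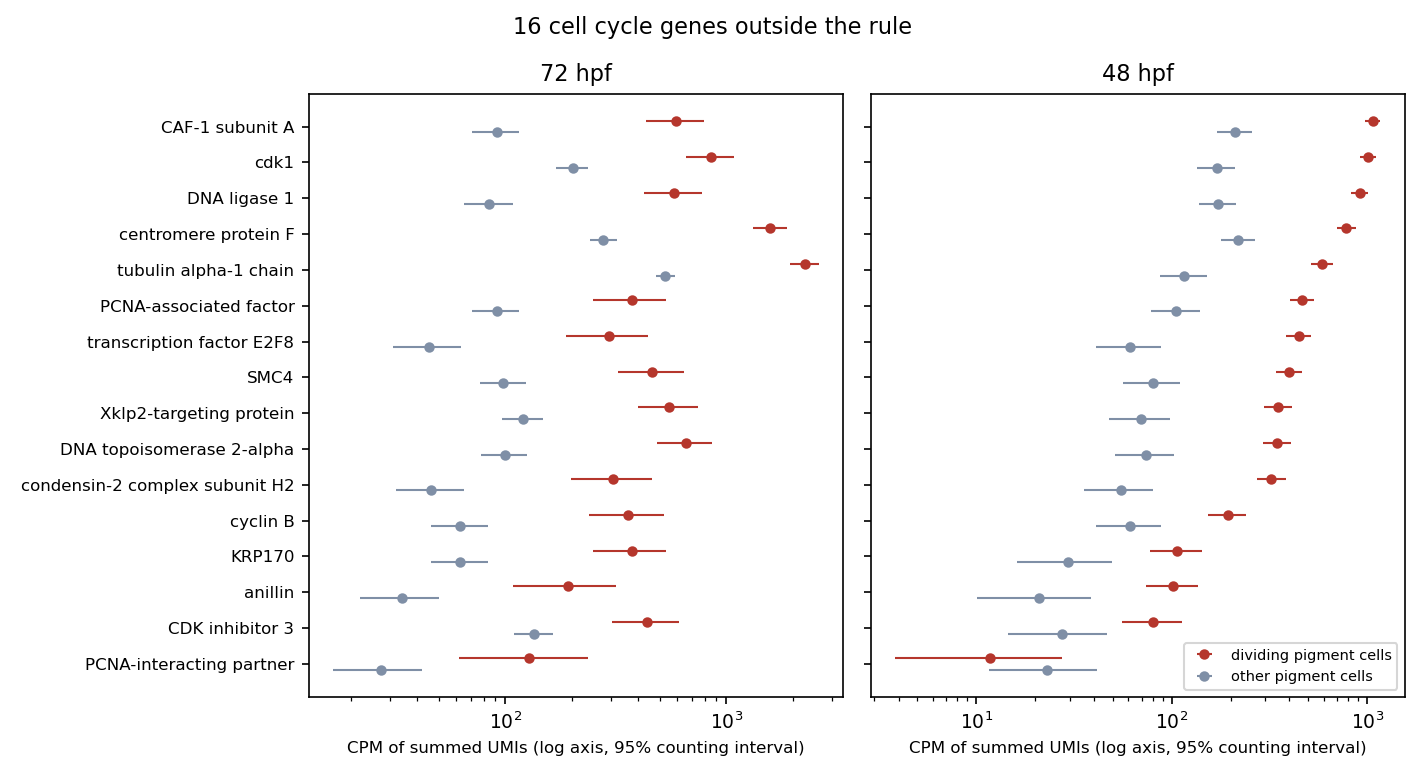
CPM of each of the 16 cell cycle genes (log axis, 95% Poisson intervals) in dividing pigment cells (red) and other pigment cells (grey), 72 hpf left and 48 hpf right. The red points lie right of the grey ones in every row at 72 hpf, and in all rows but that of the PCNA-interacting partner at 48 hpf.

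The control MO library was not used to choose any member and gave 55 dividing pigment cells of 201 by the same rule, 27.4% (21.3 to 34.1%). In it the 16 genes had 5225 CPM in dividing and 825 CPM in other pigment cells, a ratio of 6.34 (5.47 to 7.37), and all 9 of them with at least 50 UMIs were at least 2-fold higher. Cyclin B had 29 and 3 UMIs there, KRP170 19 and 1, and SLBP 28 and 4. The dividing pigment cells of that library also held 50 UMIs of the gut gene Endo16, in 6 cells, with 32 of them in 1 cell. The gcm MO library held 6 cells that met the pigment rule, 1 of them dividing, and was not compared further.

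Genes with a symbol behaved unevenly. Cyclin A (CycA), a partner of cyclin-dependent kinases in S and G2, had 219 CPM in dividing and 54.5 CPM in other pigment cells at 72 hpf, and 236 and 44.2 CPM at 48 hpf. The mitotic kinesin KIF15 had 116 and 32.7 CPM at 72 hpf and 106 and 27.3 CPM at 48 hpf. In contrast cdk4, the kinase of the G1 phase, had 129 and 134 CPM at 72 hpf and 28.3 and 31.5 CPM at 48 hpf, ratios of 0.963 (0.448 to 1.85) and 0.898 (0.384 to 2.06). Both intervals of cdk4 included 1, on 10 and 12 UMIs in dividing pigment cells. The histone variant H2A.F/Z had 2006 and 779 CPM at 72 hpf, a ratio of 2.58 (2.14 to 3.08), and 1228 and 883 CPM at 48 hpf, a ratio of 1.39 (1.22 to 1.59). In the control MO library its ratio was 2.59, so that the 48 hpf value was the low one of the 3 libraries. HMG1, a chromatin protein, had ratios of 1.16 at 72 hpf and 0.830 at 48 hpf, and the deacetylase HDAC1 1.35 and 1.12, all with intervals that included 1. Summed, the 7 cell cycle symbols had a ratio of 2.51 (1.77 to 3.51) at 72 hpf and 4.51 (3.40 to 6.06) at 48 hpf, and the 8 histone and chromatin symbols 1.91 (1.65 to 2.21) and 1.26 (1.13 to 1.42).

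Over all genes with at least 50 UMIs in the pigment cells of a stage, the rule genes left out, 154 of 2339 (6.58%) were at least 2-fold higher in dividing pigment cells at 72 hpf and 260 (11.1%) at least 2-fold lower. At 48 hpf 118 of 2290 (5.15%) were at least 2-fold higher and 40 (1.75%) at least 2-fold lower. The dividing pigment cells of 72 hpf held only 77770 UMIs in all, against 423490 at 48 hpf, so that many genes past 2-fold at 72 hpf rested on few UMIs. With a minimum of 200 UMIs the counts were 15 higher and 44 lower at 72 hpf, and 19 higher and 4 lower at 48 hpf. In cells chosen by the thinned rule 72 genes were higher and 63 lower at 72 hpf, so that the larger number of lower genes did not hold there, and 94 were higher and 32 lower at 48 hpf. More UMIs came from 1 cell than from all others together in 9 of the 154 genes and in 7 of the 118. The median ratio over all genes was 0.914 at 72 hpf and 0.973 at 48 hpf. Of the 16 genes, 14 had 50 UMIs at each stage and all 14 were at least 2-fold higher, at medians of 5.72 and 5.01.

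Of 1878 genes measured at both stages, 52 (2.77%) were at least 2-fold higher at both and 8 (0.426%) at least 2-fold lower at both. Among the 52 were 13 of the 16 study genes and 1 gene with a symbol, CycA. In the control MO library 28 of the 52 had at least 50 UMIs, all 28 were higher in dividing pigment cells and 26 were at least 2-fold higher (92.9%). Of all 1154 genes with 50 UMIs in the 3 libraries, 53 (4.59%) were at least 2-fold higher there. The cells of the control MO library were split by the same rule, so it is no independent test of these genes. Over every gene with 50 UMIs in that library, 59 of 1296 (4.55%) were at least 2-fold higher and 24 (1.85%) at least 2-fold lower.

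**Figure D4:**
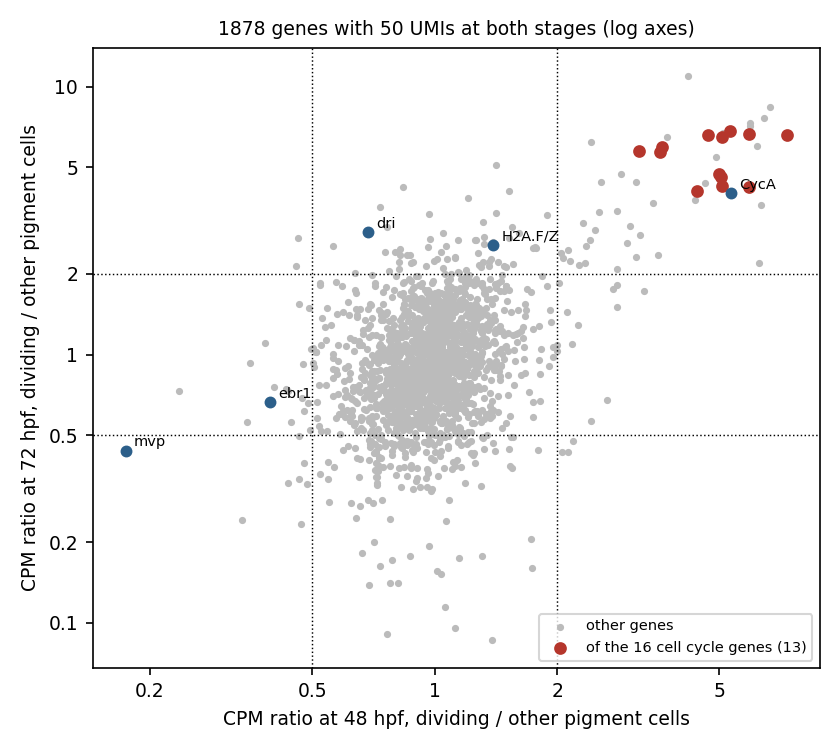
CPM ratio of dividing over other pigment cells at 72 hpf against that at 48 hpf (log axes) for 1878 genes with at least 50 UMIs at each stage, with dotted lines at 2-fold. The cell cycle genes (red, 13) and CycA (blue) lie at the upper right, mvp and ebr1 (blue) at the left, and dri and H2A.F/Z above 2-fold at 72 hpf only.

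Ranked by the lower bound of the ratio at 48 hpf, the first 12 of the 52 comprised E2F8, cdk1, DNA ligase 1, chromatin assembly factor 1 subunit A, condensin-2 subunit H2, tubulin alpha-1 chain and 6 genes that no table used here pairs with a name. The most abundant of these 6, LOC577596, had 1530 CPM in dividing and 229 CPM in other pigment cells at 72 hpf and 1913 and 374 CPM at 48 hpf, in 126 of the 153 cells. LOC105437539 had 437 and 57.2 CPM at 72 hpf and 801 and 124 CPM at 48 hpf. LOC762796 had 399 and 47.7 CPM at 72 hpf and 335 and 50.5 CPM at 48 hpf, a ratio of 6.64 at 48 hpf and 5.51 in the control MO library. LOC581431, LOC755086 and LOC585100 had ratios of 3.63, 7.31 and 5.46 at 72 hpf and of 6.32, 5.96 and 4.90 at 48 hpf.

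The 8 genes named as lower were those with the lowest upper bound of the ratio at 48 hpf among genes at least 2-fold lower there and below 1 at 72 hpf. The major vault protein gene mvp had 4 UMIs in dividing and 86 UMIs in other pigment cells at 72 hpf (51.4 and 117 CPM), and 9 and 58 UMIs at 48 hpf (21.3 and 122 CPM). Its ratio at 48 hpf was 0.174 (0.0759 to 0.354), but in the control MO library it was 0.909 (0.515 to 1.57). The egg bindin receptor gene ebr1 had 193 and 290 CPM at 72 hpf and 82.7 and 210 CPM at 48 hpf, with a ratio of 0.567 in the control MO library. LOC588460, without a name here, had 51.4 and 212 CPM at 72 hpf and 194 and 576 CPM at 48 hpf. Its UMIs at 48 hpf lay in few cells of either kind. The 82 in dividing pigment cells lay in 7 of 153 cells, and the 274 in other pigment cells in 13 of 298. LOC580476 had 206 and 414 CPM at 72 hpf and 172 and 372 CPM at 48 hpf. Of the 8 genes, mvp, LOC588460 and LOC752861 had ratios of 0.439, 0.242 and 0.396 at 72 hpf, and LOC588154 and LOC577919 had 0.933 and 0.920. In the control MO library 2 of the 8, LOC589800 (2.09) and LOC752861 (1.89), were higher in dividing pigment cells.

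Immune genes were few. Of the 9 listed, 1 had 50 UMIs at 72 hpf and 2 at 48 hpf. Summed, they were at 116 CPM in dividing and 188 CPM in other pigment cells at 72 hpf, a ratio of 0.616 (0.276 to 1.203), and at 89.7 and 248 CPM at 48 hpf, a ratio of 0.362 (0.244 to 0.525). In the control MO library the ratio was 0.757 (0.502 to 1.124), an interval that included 1. Of the 38 UMIs in dividing pigment cells at 48 hpf, 21 were of isg12 and 9 of mvp, and of the 118 in other pigment cells 45 and 58 were. The interferon-inducible gene isg12 had 2 and 29 UMIs at 72 hpf and 21 and 45 UMIs at 48 hpf, a ratio of 0.524 (0.297 to 0.898) at 48 hpf. The complement gene c3 had at most 6 UMIs in any of these groups. The exporter gene ABCB1 had 0 UMIs in dividing and 34 in other pigment cells at 72 hpf, and 10 and 31 at 48 hpf, a ratio of 0.362 (0.158 to 0.758). The 5 ABC transporters together had 8 and 70 UMIs at 72 hpf, a ratio of 1.08 (0.448 to 2.25), and 43 and 78 at 48 hpf, a ratio of 0.619 (0.416 to 0.910).

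The genes of translation and of the aboral ectoderm lists stayed within 2-fold as sums. rps15a had 4706 CPM in dividing and 3349 CPM in other pigment cells at 72 hpf, and 3622 and 3760 CPM at 48 hpf. The translation genes together had a ratio of 1.37 (1.27 to 1.48) at 72 hpf and 0.958 (0.914 to 1.00) at 48 hpf. SPEC1 had 553 and 911 CPM at 72 hpf and 656 and 606 CPM at 48 hpf, and 1 cell held 77 of its 278 UMIs at 48 hpf. The 5 aboral ectoderm markers together had 1080 and 1461 CPM at 72 hpf and 907 and 931 CPM at 48 hpf. The 6 apical and neural markers had 334 and 146 CPM at 72 hpf, 22 of the 26 UMIs being of hnf6, and 246 and 284 CPM at 48 hpf. Ciliary genes had 12 UMIs at 72 hpf and 27 at 48 hpf in dividing pigment cells, with ratios of 1.62 (0.798 to 3.01) and 1.32 (0.728 to 2.41). Of the mesoderm regulators, otx had ratios of 1.05 at 72 hpf and 1.101 at 48 hpf, but of 4.49 (2.38 to 8.97) in the control MO library. Its 38 UMIs in dividing pigment cells of that library lay in 10 cells, 9 of them in 1 cell. The germline markers had 3 UMIs at 72 hpf and 6 at 48 hpf.

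The ratio of a set of replication genes to a set of mitosis genes was lower at 72 hpf than at 48 hpf in dividing pigment cells. The UMIs of 6 replication genes (DNA ligase 1, chromatin assembly factor 1 subunit A, PCNA-associated factor, E2F8, SLBP and Cdc6) were divided by those of 8 mitosis genes (cyclin B, centromere protein F, the Xklp2-targeting protein, anillin, KRP170, DNA topoisomerase 2-alpha, CycA and KIF15), both lists drawn up after their values were seen and cdk1 left out. The ratio has no fixed neutral value and serves only to compare groups of cells. In dividing pigment cells it was 0.483 (0.395 to 0.587) at 72 hpf, from 152 and 315 UMIs, and 1.40 (1.29 to 1.52) at 48 hpf, from 1315 and 940 UMIs. Cell by cell, 12 of the 34 cells had more replication than mitosis UMIs and 21 had fewer at 72 hpf, and 89 of the 153 had more and 43 fewer at 48 hpf.

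Dividing non-pigment cells had the opposite order, 1.01 (0.980 to 1.05) at 72 hpf and 0.688 (0.670 to 0.707) at 48 hpf. The dividing pigment cells thus stood below dividing non-pigment cells at 72 hpf, at 0.476 of their ratio, and above them at 48 hpf, at 2.03. In the control MO library dividing pigment cells were again above, at 1.56 (1.33 to 1.84), against 0.613 (0.592 to 0.635) in dividing non-pigment cells. With cdk1 added to the mitosis genes, a choice made after seeing the data, the ratio was 0.399 (0.328 to 0.483) in dividing pigment and 0.796 (0.772 to 0.821) in dividing non-pigment cells at 72 hpf, 0.963 (0.892 to 1.04) and 0.477 (0.465 to 0.489) at 48 hpf, and 1.02 and 0.378 in the control MO library. The dividing pigment cells were then at 0.501 of the ratio of dividing non-pigment cells at 72 hpf and at 2.02 at 48 hpf. As CPM ratios to dividing non-pigment cells at 72 and 48 hpf, the replication genes had 1.06 and 1.94 and the mitosis genes 2.22 and 0.955. Among genes in neither list, condensin-2 subunit H2 (1.55 and 2.26), SMC4 (1.29 and 1.69) and tubulin alpha-1 chain (50.9 and 97.3) were higher at 48 hpf. Lower at 48 hpf were cdk1 (1.705 and 0.976), CDK inhibitor 3 (3.64 and 1.05) and the PCNA-interacting partner (3.56 and 0.372, on 10 and 5 UMIs). With the thinned rule the ratios were 0.389 in dividing pigment and 1.05 in dividing non-pigment cells at 72 hpf, and 1.36 and 0.777 at 48 hpf. The 10 cells of 72 hpf with a pigment share of at least 1% gave 0.365 (0.250 to 0.524), and the 147 such cells of 48 hpf gave 1.53 (1.40 to 1.67). Other pigment cells, most of them with few such UMIs, had 0.432 at 72 hpf and 1.06 at 48 hpf, and 2.17 in the control MO library, above its dividing pigment cells. No replicate of either stage was at hand, and the difference between the stages was not tested.

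**Figure D5:**
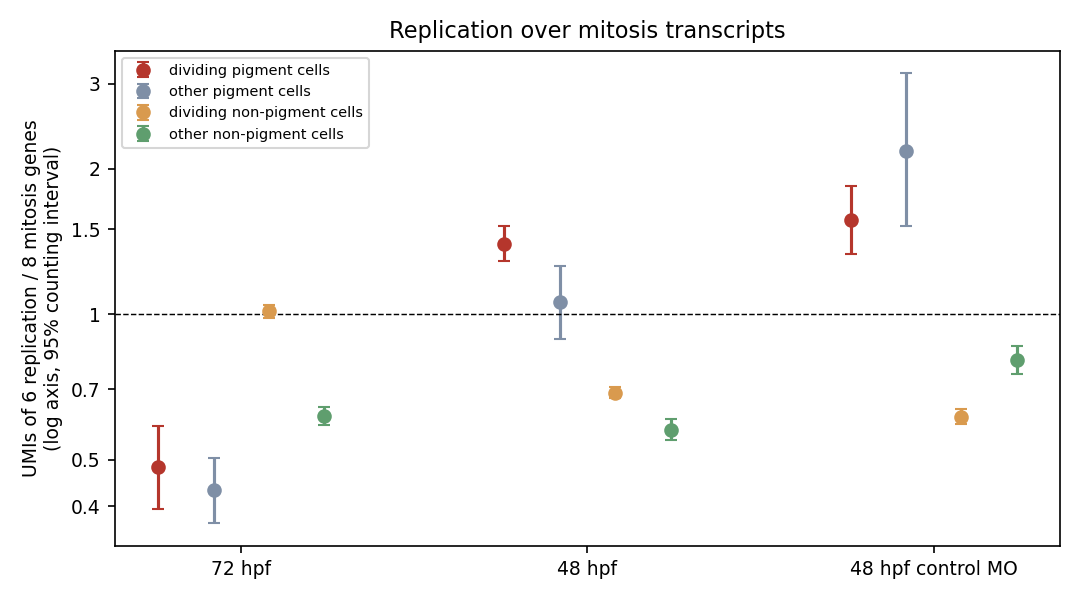
UMIs of 6 replication genes over UMIs of 8 mitosis genes (log axis, exact conditional 95% intervals) in dividing pigment, other pigment, dividing non-pigment and other non-pigment cells of the 72 hpf, 48 hpf and control MO libraries. Dividing pigment cells (red) lie at 0.483 at 72 hpf, below dividing non-pigment cells (1.01), and at 1.40 at 48 hpf, above them (0.688).

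Dividing non-pigment cells were all dividing cells that failed the pigment rule, and their lineage was not determined. Their pigment share reached 1.62% at 48 hpf. The 16 genes had 10004 CPM in dividing pigment and 4568 CPM in dividing non-pigment cells at 72 hpf, a ratio of 2.19 (2.04 to 2.35). At 48 hpf they had 7176 and 5049 CPM, a ratio of 1.42 (1.37 to 1.48). The non-pigment cells were deeper, with medians of 3874 UMIs at 72 hpf and 4347 at 48 hpf, so that 4 UMIs were a smaller share of their RNA. With the thinned rule the ratios were 1.77 and 1.43. In the control MO library the ratio was 0.850 (0.793 to 0.910), below 1.

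Tubulin alpha-1 chain (LOC584331) made part of this difference. It had 2263 CPM in dividing pigment and 44.5 CPM in dividing non-pigment cells at 72 hpf, and 588 and 6.04 CPM at 48 hpf, ratios of 50.9 and 97.3. Its level in other pigment cells was 530 CPM in the 72 hpf and 116 CPM in the 48 hpf library, above the dividing non-pigment cells as well. The other 15 genes had ratios to dividing non-pigment cells of 1.71 (1.58 to 1.86) at 72 hpf and 1.31 (1.26 to 1.36) at 48 hpf. E2F8 and DNA ligase 1 were 2.98-fold and 2.42-fold higher in dividing pigment cells at 48 hpf, and cyclin B (0.720) and KRP170 (0.515) were lower. At 72 hpf E2F8 and DNA ligase 1 were at 1.43 and 1.02 and cyclin B and KRP170 at 2.28 and 2.03.

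Over all genes with at least 100 UMIs summed over both kinds of dividing cell, 654 of 4132 (15.8%) were at least 2-fold higher in dividing pigment cells at 72 hpf and 1024 (24.8%) at least 2-fold lower. At 48 hpf 801 of 5565 (14.4%) were at least 2-fold higher and 1956 (35.1%) at least 2-fold lower. Dividing pigment cells held 77770 UMIs at 72 hpf and 423490 at 48 hpf, against 3954831 and 5792249 in dividing non-pigment cells. A gene could thus pass the minimum through the non-pigment cells alone. At 72 hpf a gene near the minimum rested on few UMIs in dividing pigment cells, so that these counts include counting error. At 48 hpf the 5 highest ratios, outside the rule genes, were those of LOC583397 (224), LOC590101 (201), arc3 (171), LOC578648 (164) and LOC100891288 (157). LOC578648, at 4609 CPM in dividing pigment and 28.1 CPM in dividing non-pigment cells, was the most abundant of them, and it had 4782 CPM in other pigment cells. All 5 had ratios of 0.744 to 1.04 between dividing and other pigment cells at 48 hpf. The 5 genes taken as lowest at 48 hpf had 0 UMIs in the dividing pigment cells of that stage and 113 to 234 in the dividing non-pigment cells. These were LOC574548, LOC100888469, LOC762650, LOC762594 and LOC100888399, none named here. All 5 were tied at a ratio of 0, and their order within that tie was arbitrary. Any further genes at 0 were not counted. H2A.F/Z was at 0.618 of the level of dividing non-pigment cells at 72 hpf and at 0.347 at 48 hpf.

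Between the stages, 50 of 797 genes (6.27%) with at least 100 UMIs over the dividing pigment cells were at least 2-fold higher at 72 hpf and 147 (18.4%) at least 2-fold lower. LOC763085 had the highest ratio, with 1492 CPM at 72 hpf and 54.3 CPM at 48 hpf, 27.5-fold (17.4 to 45.0). Its levels in other pigment cells were 2693 CPM (72 hpf) and 61.0 CPM (48 hpf). LOC583484 had 1479 and 274 CPM in dividing cells of 72 and 48 hpf, and 3554 and 324 CPM in other pigment cells. LOC579169 had 964 and 168 CPM in dividing cells, and 1638 and 160 CPM in other pigment cells. These 3 thus differed between the stages in both kinds of pigment cell. LOC585965 and LOC593222 were at 7.82-fold and 6.10-fold in dividing cells and at 3.70-fold and 2.30-fold in other pigment cells. At 72 hpf both were higher still in dividing non-pigment cells, at 2428 and 1967 CPM, against 1144 and 1427 CPM in dividing pigment cells. The 89 UMIs of LOC585965 in dividing pigment cells of 72 hpf lay in 15 cells, 23 of them in 1 cell. Those of LOC593222 were 111 in 24 cells, also 24 of them in 1 cell.

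LOC575172 had 0 UMIs at 72 hpf and 909 UMIs (2146 CPM, 103 cells) at 48 hpf in dividing pigment cells. Against 3 counts over the 72 hpf cells this is at least 55.6-fold lower at 72 hpf. Other pigment cells had 19.1 CPM of it at 72 hpf and 2700 CPM at 48 hpf. LOC100893214 had 0 UMIs at 72 hpf and 129 at 48 hpf, at least 7.90-fold lower. LOC100889014 had 1 UMI at 72 hpf and 193 at 48 hpf, and LOC575250 had 2 and 153. PM27, also among the 5 lowest, rested on the single skeletogenic cell of 48 hpf. Of the cell cycle genes, tubulin alpha-1 chain (3.85-fold, 3.16 to 4.69), CDK inhibitor 3 (5.44-fold, 3.28 to 9.03) and KRP170 (3.51-fold, 2.12 to 5.72) were higher at 72 hpf, and chromatin assembly factor 1 subunit A (0.555), DNA ligase 1 (0.632) and SLBP (0.433) were lower. Other pigment cells differed in the same direction, with 4.58, 4.93, 2.13, 0.434, 0.490 and 0.270 for these genes in that order. The threshold of 4 UMIs was a larger share of the RNA of dividing cells at 72 hpf. Its effect on these levels was not tested. The pigment genes pks1 and sult1c2 were at 0.274 and 0.307 of their 48 hpf level, close to the ratios of 0.284 and 0.319 in other pigment cells.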

How the data were processed

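The authors counted UMIs per gene and cell with Cell Ranger (3′ v3 chemistry) on a reference from an earlier S. purpuratus assembly and deposited these counts, without normalization, for the cells that Cell Ranger called. The 4 libraries held 2298196 to 17172515 UMIs in 643 to 8178 cells. The gene limits of the study, 400 and 2500 per cell, left 6666 cells at 72 hpf and 5170 cells at 48 hpf. Rows that shared a symbol were summed. UMIs were summed over each group of cells and divided by the group's total (CPM), with exact Poisson, Clopper-Pearson and conditional binomial intervals at 95%, and the functions were tested on simulated counts (scipy 1.17.1 and numpy 2.4.6 under Python 3.11.15, with scanpy 1.11.5 and matplotlib 3.10.9).

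The members, the gene lists and the rules were chosen with earlier results of these data known. Names come from the files' symbols, the study's own gene list and a later gene table (Spur_5.0), in which 21064 of 31264 symbols were found. One gene of the mesoderm regulator list, and the sum of that list, are not reported here. No coordinates were used, and sequences were not analysed here. Lists by words in product names could not be applied and were replaced by lists of symbols. Of the 8 histone and chromatin symbols, 5 had no UMI in dividing pigment cells. Genes were named where they ranked first by an interval bound of the ratio at 48 hpf (12 among genes at least 2-fold higher at both stages, 8 among genes at least 2-fold lower at 48 hpf and below 1 at 72 hpf), where they belonged to the study's list of 16 or led a list by UMIs (up to 4 a list), and where they had the 5 highest or lowest ratios between stages or to dividing non-pigment cells. Scrublet at an expected rate of 5% called 0 cells at 72 hpf and 2 at 48 hpf, so the caller did not work. No doublet was removed, and the alternative without called cells was not run.

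Alternatives were 3 or 6 UMIs of the 8 genes, deeper or thinned cells, no upper limit on genes, 10 pigment UMIs, other pigment cells with 0 UMIs of the 8 genes, means of per-cell CPM and minimums of 10 or 200 UMIs. Chosen after seeing the data were a pigment share of 1%, cdk1 among the mitosis genes and leaving out the 2 cells rich in skeletogenic or gut markers.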

Additional observations from a re-analysis of the deposited data

Results flagged for a closer look

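The ratio of replication to mitosis UMIs in dividing pigment cells was 0.476 of that in dividing non-pigment cells at 72 hpf and 2.03 of it at 48 hpf, on opposite sides of 1. Both gene lists of this ratio were drawn up after their values were seen, and with cdk1 added to the mitosis genes the values were 0.501 and 2.02. dri had a CPM ratio of dividing over other pigment cells of 2.86 at 72 hpf, with its 20 UMIs in 5 cells, and of 0.685 at 48 hpf, but of 5.75 (3.50 to 9.83) in the control MO library, also of 48 hpf. In that library its 73 UMIs in dividing pigment cells lay in 12 cells, 18 of them in 1 cell. rps14, a protein of the small ribosomal subunit, had 1.33 at 72 hpf and 0.895 at 48 hpf. LOC593222, without a name here, had 1.70 at 72 hpf and 0.643 at 48 hpf. These results stood out because the 2 stages lay on opposite sides of 1. With 1 library per stage the difference between the stages was not tested for any of them.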

How the results depend on the processing

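Of the 10 results recomputed, no ratio crossed 1. In thinned cells at 72 hpf the higher genes outnumbered the lower ones, the reverse of the order as reported. Single genes, gene lists and ratios between stages were not recomputed. Of 95 recomputed values under 12 settings, 47 moved by less than their counting interval or, for counts of genes, stayed within 1.5 times, and 48 moved further. The cause was not tested. The dividing share, with 5.07% at 72 hpf and 33.9% at 48 hpf as reported, was 8.81% and 42.1% with 3 UMIs of the 8 genes, 2.24% and 24.6% with 6 UMIs, and 20.00% and 51.7% in cells of at least 1500 UMIs. At 72 hpf it was 15.6% in thinned cells and 8.15% with 10 pigment UMIs.

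The ratio of the 16 genes between dividing and other pigment cells at 72 hpf (4.99) was 5.51 with 3 UMIs, 3.48 with 6 UMIs, 3.30 in cells of at least 1500 UMIs, 4.10 in thinned cells, 4.16 with 10 pigment UMIs, 8.34 against cells with 0 UMIs of the 8 genes, 6.36 as a mean of per-cell CPM and 6.57 with a pigment share of at least 1%. At 48 hpf (4.81) it was 7.63 in cells of at least 1500 UMIs, 3.39 in thinned cells, 5.23 with 10 pigment UMIs, 7.32 against cells with 0 UMIs and 3.78 as a mean of per-cell CPM. The ratio to dividing non-pigment cells at 72 hpf (2.19) was 1.71 with 6 UMIs, 1.77 in thinned cells and 3.08 with a pigment share of at least 1%, and at 48 hpf (1.42) it was 1.53 with 6 UMIs.

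Counts of genes past 2-fold moved most with the minimum of UMIs. With 10 UMIs a gene, 960 were higher and 1320 lower at 72 hpf and 639 and 522 at 48 hpf. With 200 UMIs they were 15 and 44 at 72 hpf and 19 and 4 at 48 hpf. The higher genes at 72 hpf (154) were 53 in cells of at least 1500 UMIs, 72 in thinned cells, 78 with 10 pigment UMIs, 81 against cells with 0 UMIs and 64 with a pigment share of at least 1%. The lower genes at 72 hpf (260) were 149 with 3 UMIs, 479 with 6 UMIs, 87 in cells of at least 1500 UMIs, 63 in thinned cells, 148 with 10 pigment UMIs, 148 against cells with 0 UMIs and 114 with a pigment share of at least 1%. The lower genes at 48 hpf (40) were 24 with 3 UMIs, 77 as a mean of per-cell CPM and 26 with a pigment share of at least 1%. The 77770 UMIs of the dividing pigment cells at 72 hpf limit what can be seen there. No paired analysis was possible because each condition had 1 library.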
